A study of Mus musculus with 6 samples.

Results

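The histamine genes were followed across neuron classes, mouse groups and treatments in single nuclei of mouse hypothalamus. They were taken by name and are 5 of the 27514 genes counted in all pools. Hdc encodes histidine decarboxylase, which makes histamine. Hnmt encodes histamine N-methyltransferase, which inactivates it, and Hrh1, Hrh2 and Hrh3 encode 3 of its receptors. On GRCm38.p6, Hdc (ENSMUSG00000027360) lies at chr2:126593659-126624025, Hnmt (ENSMUSG00000026986) at chr2:24002911-24049758 and Hrh3 (ENSMUSG00000039059) at chr2:180099465-180104484. Hrh1 (ENSMUSG00000053004) lies at chr6:114397936-114483298 and Hrh2 (ENSMUSG00000034987) at chr13:54191970-54236182, where a lncRNA gene, Gm16578, overlaps it.

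In the brain, histamine is made mainly by neurons of the tuberomammillary nucleus of the posterior hypothalamus, which promote wakefulness and restrain feeding. The H1 receptor couples to Gq and phospholipase C, the H2 receptor to Gs and adenylyl cyclase, and the H3 receptor to Gi and Go. The H3 receptor is an autoreceptor on histaminergic neurons and also sits on other neurons, where it limits transmitter release.

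The mice were diet-induced obese (DIO, labelled hfd), ob/ob on chow (OB) or chow-fed, and received rapamycin, an inhibitor of mTORC1, or vehicle. The ob/ob mutation removes functional leptin and was carried by both treatments of OB. NeuN-positive nuclei were sorted, so cells other than neurons are those that passed this sort. Each of the 3 pools is 1 library with 2 hashtags. The deposited key gives the hashtag oligo of each treatment, shown because all comparisons of treatment rest on it.
Rapamycin hashtag: ttcctgccattacta
Vehicle hashtag: ccgtacctcattgtt

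The rapamycin hashtag was called in 6008 nuclei of DIO, 5607 of OB and 4934 of chow, and the vehicle hashtag in 4541 of DIO, 2323 of OB and 5186 of chow. Genes were read as unique molecular identifiers (UMIs), each standing for 1 captured RNA molecule. Neurons, called by marker UMIs, numbered 25843 of 28599 assigned nuclei. Median UMIs per barcode were 5572 in DIO, 2804 in OB and 5826 in chow. In OB 30.4% of nuclei had no hashtag call, against 3.56% in DIO and 1.76% in chow. Pools shared 31 to 38 barcodes, and without these nuclei the calls of the 5 genes were the same for rapamycin and for the histaminergic-type class. Age, sex and the number of mice behind a hashtag are not given in the sources used here, so each hashtag is 1 sample. Levels are UMIs per 1000000 UMIs of the summed nuclei (CPM), and intervals in brackets are exact 95% intervals for counting error only. Those of UMIs take each UMI as independent, so they are too narrow where few nuclei hold many UMIs, as for Hdc.

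Hdc marked a small set of neurons. A histaminergic-type class was set without Hdc, by at least 3 UMIs from at least 2 of Slc18a2, Wif1, Prph and Maob and at most 1 UMI of dopamine or serotonin markers, and held 260 nuclei. Hdc stood at 1102 (rapamycin) and 1404 (vehicle) CPM in this class in DIO, 1623 and 1346 CPM in OB, and 1626 and 1430 CPM in chow. In other neurons it stood at 3.69 and 1.89 CPM in DIO, 4.21 and 6.0 CPM in OB, and 3.40 and 2.39 CPM in chow. The ranges of the 6 hashtag sums were far apart. Between 73.6% and 95.3% of the neuronal Hdc UMIs of a sum lay in the class. Of 236 nuclei with at least 3 Hdc UMIs, 210 met the marker rule, 20 were other neurons and 3 were not neurons, while 3 met the rule of more than 1 class. Within the class 38 of 260 nuclei held no Hdc UMI.

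**Figure D1:**
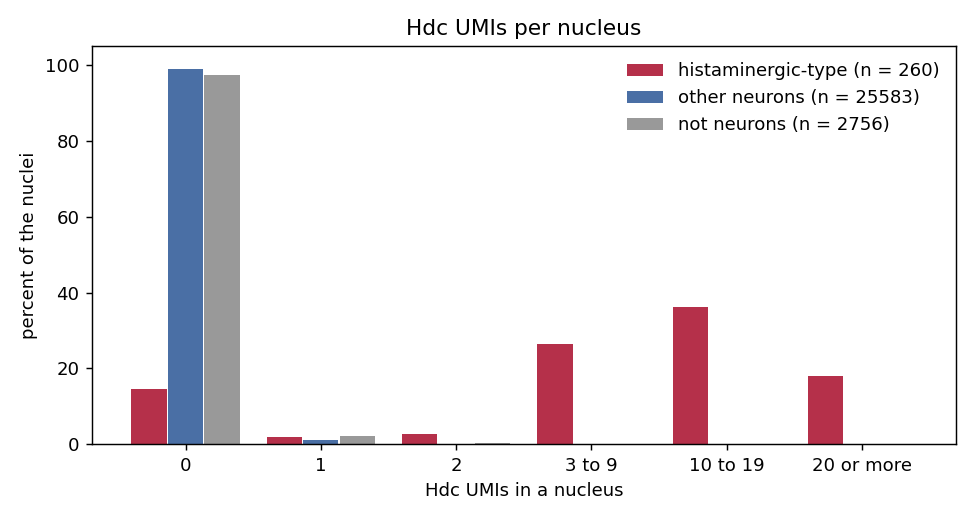
The bars give the percent of nuclei (vertical axis) by the number of Hdc UMIs in a nucleus (horizontal axis), for histaminergic-type neurons, other neurons and nuclei that are not neurons. Between 10 and 19 UMIs were seen in 36.2% of histaminergic-type nuclei and 20 or more in 18.1%, while 98.8% of other neurons held none.

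The label of the class was set beside its markers. Slc18a2, the vesicular monoamine transporter, stood at 605 CPM in the class and 23.9 CPM in other neurons, and Maob, a monoamine oxidase that degrades tele-methylhistamine, at 249.7 and 5.94 CPM, but these 2 chose the nuclei. Among genes that did not, Hcrtr2, an orexin receptor, stood at 531 CPM in the class and 50.5 CPM in other neurons, and Gad1, a GABA synthesis enzyme, at 244 and 53.0 CPM. Gad2, the other GABA synthesis enzyme, stood at 37.1 CPM in the class against 96.1 CPM in other neurons, and Ddc, a decarboxylase of monoamine synthesis, at 19.4 against 31.6 CPM. Gal, a neuropeptide gene, stood at 1.77 against 3.89 CPM. The vesicular GABA transporter Slc32a1 stood at 4.86 CPM in the class against 10.6 CPM in other neurons, and the glutamate transporter Slc17a6 at 10.2 against 82.8 CPM.

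The histaminergic-type class was tested against other neurons in the 6 hashtag sums, with the sum as a block (edgeR quasi-likelihood test with Benjamini-Hochberg adjustment over 12861 genes). Of all genes tested 28.5% were called at an adjusted p of 0.05, and of the 5 histamine genes Hdc and Hrh3 were higher and Hrh1 and Hrh2 lower. Hdc was higher by 8.74 on the log2 scale (SE 0.14, adjusted p = 2.89e-42), with no overlap between the sums.

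Hrh3, the autoreceptor gene, stood at 63.0 (rapamycin) and 61.1 (vehicle) CPM in the class in DIO, 33.8 and 94.1 CPM in OB, and 59.9 and 55.3 CPM in chow. Other neurons held 8.23 to 14.8 CPM. All 6 sums of the class exceeded those of other neurons, by 2.6 on the log2 scale in the fit (SE 0.19, adjusted p = 2.39e-16). A UMI of Hrh3 was seen in 37.7% of the class at a median of 8027 UMIs, and in 1 of 803 astrocytes at a median of 1775 UMIs. The OB sums rest on 4 UMIs (rapamycin) and 13 UMIs (vehicle).

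Hrh1 was lower in the class by a log2 difference of -2.70 (SE 0.44, adjusted p = 1.83e-06). Its 260 nuclei held 6 Hrh1 UMIs, and the sums ran from 0 to 3.94 CPM against 10.1 to 21.1 CPM in other neurons, with no overlap. Hrh2 was lower by -2.75 (SE 0.62, adjusted p = 0.000398), with 3 UMIs in the class. Its sums ran from 0 to 8.46 CPM in the class and 6.02 to 15.9 CPM in other neurons, and the ranges overlap. Without the DIO pool the Hrh2 difference was -2.01 with an adjusted p of 0.096. Hnmt ran from 5.53 to 33.8 CPM over the sums of the class and did not pass the test (log2 difference -0.17, SE 0.28, adjusted p = 0.709).

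Both genes that were higher in the class start on the minus strand of chromosome 2, as does Hnmt, which was not called. The RefSeq windows of 300 bases around their starts (GRCm38.p6) are shown because Hdc and Hrh3 were higher in the same neurons. Matches to the GC box GGGCGG or its reverse CCGCCC are in capitals. The Hdc window lies inside the gene span given above and not at its 5' end, 126624025.
Hdc, chr2:126618629-126618928, minus strand: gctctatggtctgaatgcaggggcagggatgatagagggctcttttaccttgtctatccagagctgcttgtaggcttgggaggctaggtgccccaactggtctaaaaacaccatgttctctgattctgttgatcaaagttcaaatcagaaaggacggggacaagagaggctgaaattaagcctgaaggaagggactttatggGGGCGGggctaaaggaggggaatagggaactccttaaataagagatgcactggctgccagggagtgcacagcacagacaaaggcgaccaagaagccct
Hrh3, chr2:180104358-180104657, minus strand: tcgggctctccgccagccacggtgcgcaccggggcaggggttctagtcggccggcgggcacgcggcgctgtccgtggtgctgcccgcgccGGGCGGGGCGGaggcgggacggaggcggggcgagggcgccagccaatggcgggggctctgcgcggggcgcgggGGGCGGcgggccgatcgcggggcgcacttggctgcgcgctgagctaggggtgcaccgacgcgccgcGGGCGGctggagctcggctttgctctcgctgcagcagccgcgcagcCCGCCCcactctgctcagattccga
The Hdc window held 3 CpG and 1 GC box, and the Hrh3 window 47 CpG and 5 GC boxes, against a median of 7 CpG over 32851 windows. A GC box was in 35.7% of these windows. The windows of Hrh1 held 0 to 5 GC boxes and those of Hrh2 held 1 each, though both genes were lower in the class. Neither window held TATAAA (on either strand in 13.6% of windows), CACGTG (7.15%) or TGACGTCA (1.79%).

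Among 10 genes of histaminergic neurons, 4 of which set the class, 8 were higher and 0 lower of 9 tested, at a median log2 difference of 3.85 against -0.05 over all genes. The differences of Slc18a2 (4.63 on the log2 scale), Wif1 (7.91) and Maob (5.38) were fixed by the choice of nuclei. Of the 5 tested genes that did not set the class 4 were higher and 0 lower (median 3.27), among them Hcrtr2 at 3.39. Of 13 genes that handle histamine, its precursors or its products, 9 were tested, of which 4 were higher and 1 lower (median 0.38), or 2 higher and 1 lower of 7 (median 0.20) without the genes that set the class. Beside Slc18a2 and Maob, which set the class, these included Maoa, a second monoamine oxidase, at 2.31 (SE 0.12, adjusted p = 1.0e-21). Slc29a4, a monoamine transporter of the plasma membrane, was higher by 1.07 (SE 0.31, adjusted p = 0.00632). Of 18 genes that couple the receptors to their effectors, 4 were higher and 9 lower (median -0.34). These list counts stand beside 28.5% of all genes called in the fit. The 4 with the lowest p were all lower. They were the channel subunit Kcnj3 at -2.14, the inositol trisphosphate receptor Itpr1 at -2.33, the adenylyl cyclase Adcy2 at -1.40 and the Gs subunit Gnas at -0.91 on the log2 scale.

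**Figure D2:**
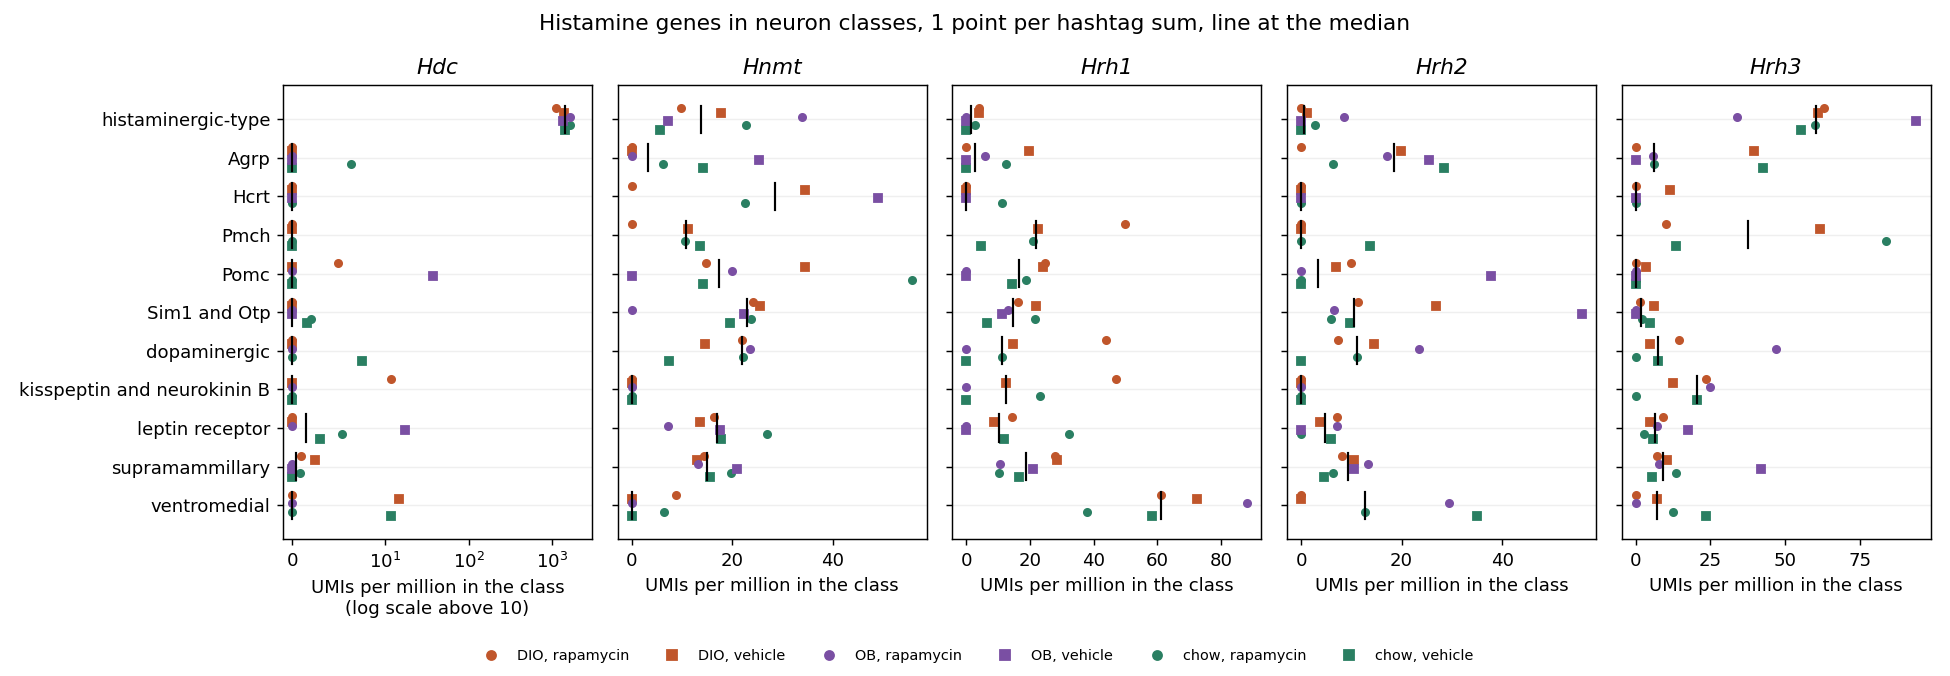
Each panel gives 1 histamine gene, with CPM on the horizontal axis and neuron classes down the page, 1 point for each hashtag sum of at least 5 nuclei and a line at the median. The Hdc axis is logarithmic above 10 CPM. The histaminergic-type class held the highest medians of Hdc (1417 CPM) and Hrh3 (60.5 CPM), ventromedial neurons the highest of Hrh1 (61.3 CPM), Agrp neurons of Hrh2 (18.5 CPM) and Hcrt neurons of Hnmt (28.5 CPM).

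Across the other neuron classes the receptors differed. Hrh1 was higher in ventromedial neurons, which were set by Nr5a1 and Fezf1, than in other neurons. It stood at 61.3 (rapamycin) and 72.4 (vehicle) CPM in DIO, 88.2 CPM in OB rapamycin, and 38.0 and 58.5 CPM in chow. All 5 exceeded the 9.97 to 20.6 CPM of all neurons, but hold 3 to 10 Hrh1 UMIs each from 64 nuclei in all. The log2 difference was 1.81 (SE 0.36, adjusted p = 4.02e-05, edgeR), where 4.22% of all genes were called. Thinned to 1000 UMIs a nucleus, 1.56% of ventromedial neurons (1 of 64) and 1.49% of all neurons held a Hrh1 UMI.

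Hrh3 was higher in Pmch neurons, which make melanin-concentrating hormone, by 1.97 on the log2 scale (SE 0.44, adjusted p = 1.75e-04, edgeR), where 10.4% of genes were called. It stood at 9.99 (rapamycin) and 61.8 (vehicle) CPM in DIO and 84.0 and 13.7 CPM in chow, with 1 to 11 UMIs per sum. Of these 4 sums, 2 lay within the 8.77 to 14.9 CPM of all neurons, and the others within that of histaminergic-type neurons. After thinning, 1.72% of Pmch neurons (1 of 58) and 1.2% of all neurons held a Hrh3 UMI. Hrh3 was lower in Pomc neurons, which make melanocortins, by -3.29 (SE 1.003, adjusted p = 0.0159), where 8.7% of genes were called and 129 nuclei held 1 Hrh3 UMI. In Sim1 and Otp neurons, of the paraventricular type, it was lower by -1.58 (SE 0.41, adjusted p = 0.00491), where 8.75% of genes were called.

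Hrh2 was higher in Sim1 and Otp neurons by 0.93 on the log2 scale (SE 0.28, adjusted p = 0.0207). It ran from 5.91 to 55.8 CPM over the 6 sums, with a median of 10.5 CPM. All neurons held 5.99 to 15.5 CPM with a median of 9.03 CPM, so these ranges overlap. Agrp neurons had the highest Hrh2 median, 18.5 CPM on 8 UMIs, and did not pass the test (log2 difference 0.47, adjusted p = 0.811), and the ranges of these classes overlap. Hnmt did not pass the test in any of these 10 classes, and its medians ran from 0 CPM in kisspeptin and neurokinin B neurons to 28.5 CPM in Hcrt neurons. Hdc was lower in 9 of the 10 classes, where the other neurons include the histaminergic type, and had no UMI in 58 Pmch and 36 Hcrt nuclei. These floors of 3 counts are 4.83 and 9.29 CPM. Called genes made up 6.71% in Agrp, 7.07% in Hcrt, 2.9% in dopaminergic, 2.47% in kisspeptin and neurokinin B, 5.85% in leptin receptor and 11.4% in supramammillary neurons. The fits of these 10 classes were not repeated without single pools.

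Over the means of 14 named classes, the genes most like Hdc were Prph, Atp8a1 and Wif1 (Pearson r of 0.93, 0.91 and 0.90 on log2(CPM + 1)), of which Prph and Wif1 set the class. Those most like Hnmt were Nudt11, Dxo and Lrrc55 (0.95, 0.93 and 0.92), and those most like Hrh1 were Ptpn3, Lmnb2 and Gria3 (0.95, 0.94 and 0.92). Rtf1, Nfkbiz and Khsrp were most like Hrh2 (0.89, 0.86 and 0.85), and Gm6999, Hs3st1 and Cyp4f13 most like Hrh3 (0.86 each). These are the highest of 11781 genes compared, in classes that share libraries and in part hold few nuclei.

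Clusters made without the 5 genes gave a second view, as a description with no test. A cluster led by Wif1, Slc16a10 and Prph held Hdc at 1589 CPM and Hrh3 at 66.6 CPM. Hrh2 was highest in a cluster led by Avp and Oxt, the genes of vasopressin and oxytocin. There it stood at 29.3 (rapamycin) and 43.6 (vehicle) CPM in DIO, 39.0 and 82.9 CPM in OB, and 21.5 and 28.3 CPM in chow. Vehicle was the higher of the pair in each pool, on 9 to 51 UMIs per sum. Among neuronal clusters, Hrh1 was highest in one led by Hmcn2, Gpr149 and Slit3 (41.7 CPM), and Hrh3 was next highest in one led by Pmch (28.3 CPM).

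**Figure D3:**
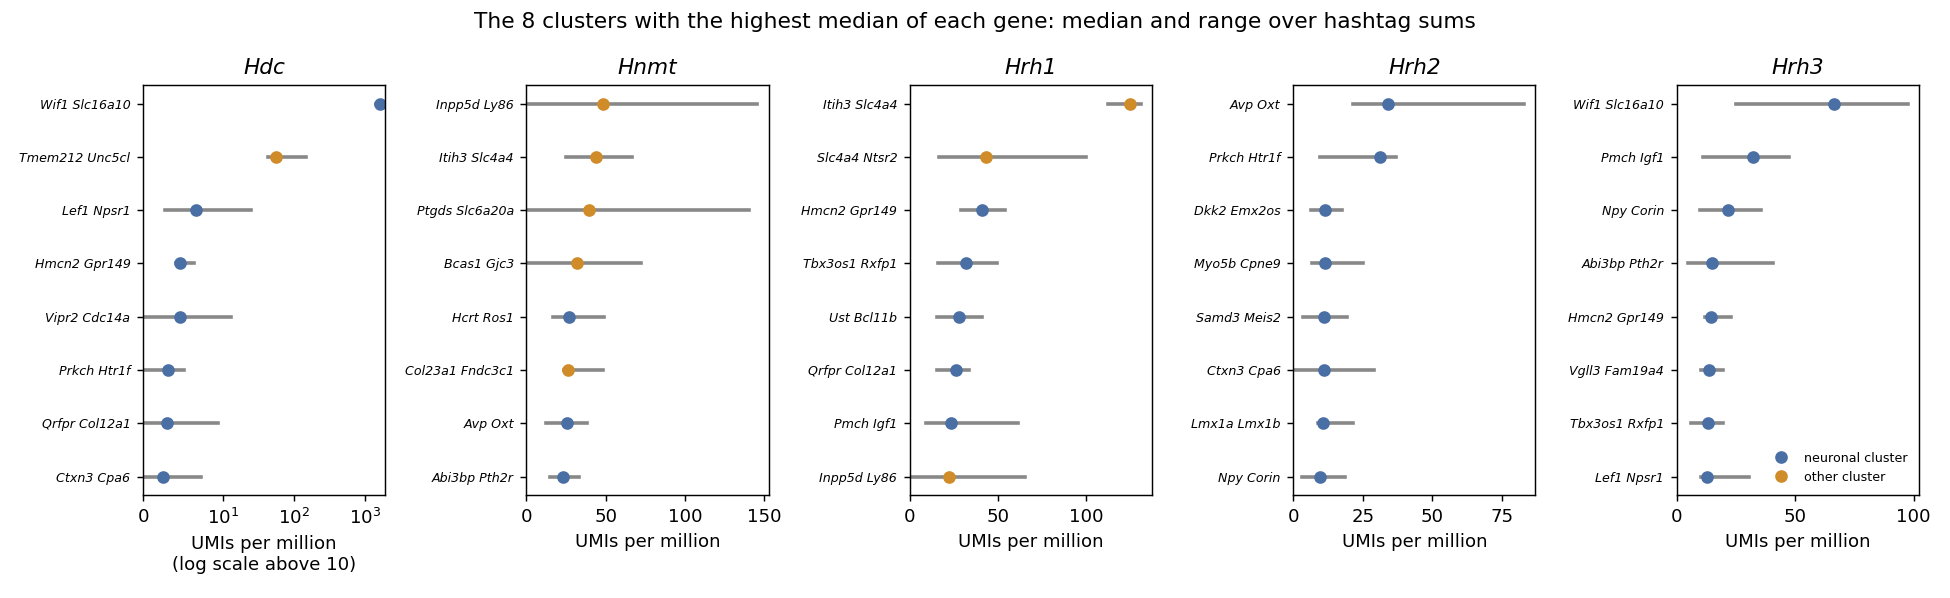
Each panel shows the 8 clusters with the highest median CPM of 1 histamine gene, named by their 2 leading genes. Points are medians and lines the range over hashtag sums, blue for neuronal and orange for other clusters, with a logarithmic Hdc axis above 10 CPM. The Hrh1 median was 125 CPM in a cluster led by the astrocyte genes Itih3 and Slc4a4.

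GABAergic neurons (5725 nuclei, set by Slc32a1, Gad1 and Gad2) were compared with glutamatergic neurons (2649 nuclei, set by Slc17a6) in the same 6 sums (13518 genes, 16.8% called, edgeR). Hdc and Hrh3 were higher and Hrh1 lower in GABAergic neurons. Hdc stood at 51.6 (rapamycin) and 111 (vehicle) CPM in GABAergic neurons in DIO, 30.4 and 63.3 CPM in OB, and 61.3 and 33.9 CPM in chow, while glutamatergic neurons held 0 to 3.42 CPM. The log2 difference was 4.55 (SE 0.14, adjusted p = 4.81e-20). Without histaminergic-type nuclei it was 0.49 with an adjusted p of 0.314.

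Hrh3 stood at 8.59 to 16.8 CPM in GABAergic neurons and 6.99 to 11.3 CPM in glutamatergic neurons, and the ranges overlap. Its log2 difference was 0.56 (SE 0.13, adjusted p = 0.00245), and 0.29 with an adjusted p of 0.182 without histaminergic-type nuclei. Without the DIO pool it was 0.51 with an adjusted p of 0.105. Hrh1 stood at 7.26 to 16.2 CPM in GABAergic and 13.5 to 29.2 CPM in glutamatergic neurons, a log2 difference of -0.84 (SE 0.10, adjusted p = 2.30e-07). It was still lower without histaminergic-type nuclei, at -0.78. With no block for the sum, neither Hrh1 (-0.82, adjusted p = 0.0700) nor Hrh3 (0.58, adjusted p = 0.0685) was called. Hrh2 (-0.47, adjusted p = 0.0583) and Hnmt (0.12, adjusted p = 0.552) did not pass the test.

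Of the lists, 3 of 10 tested handling genes were higher and 0 lower in GABAergic neurons, namely Slc18a2 (1.59), Maob (1.25) and Maoa (0.40 on the log2 scale). Of 18 coupling genes 4 were higher and 5 lower, with Plcb1, a phospholipase C of the H1 pathway, at 0.63 and Itpr1 at -0.54. Of 8 tested genes of histaminergic neurons 7 were higher, or 5 of 6 without Gad1 and Slc32a1, which set the GABAergic class. These counts stand beside 16.8% of all genes called in the fit.

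Among cells other than neurons, astrocytes held the most Hrh1. They stood at 120 (rapamycin) and 103 (vehicle) CPM in DIO, 100.5 and 99.0 CPM in OB, and 122 and 131 CPM in chow, while neurons held 9.97 to 20.6 CPM. Every astrocyte sum exceeded every neuronal sum, by 2.81 on the log2 scale (SE 0.20, adjusted p = 1.54e-13, edgeR), where 51.5% of all genes were called. Hnmt was higher in astrocytes by 1.25 (SE 0.26, adjusted p = 1.57e-04), at 22.7 to 68.6 CPM against 14.1 to 19.4 CPM in neurons. Hdc (-1.15), Hrh2 (-4.04) and Hrh3 (-4.27) were lower, with 1 UMI each of Hrh2 and Hrh3 in 803 astrocytes. For Hdc the neurons include the histaminergic type. Astrocytes held 11.5 CPM of Hdc on 18 UMIs, and 0 to 24.0 CPM over the sums. Neurons without the histaminergic type held 1.89 to 6.0 CPM.

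Hdc was also seen in tanycyte and ependymal nuclei. It stood at 49.0 (rapamycin) and 68.3 (vehicle) CPM in DIO and at 61.9 and 158 CPM in OB, while chow had too few nuclei for a sum. A Hdc UMI was in 44 of these 293 nuclei at a median of 1662 UMIs, against 1.99% of astrocytes at a median of 1775 UMIs and 1.17% of oligodendrocytes at a median of 1913 UMIs. Against neurons, histaminergic-type ones included, Hdc was higher by 1.43 on the log2 scale (SE 0.31, adjusted p = 1.74e-05, edgeR), where 45.3% of genes were called. The sums rest on 2 to 39 UMIs. A cluster led by Tmem212, Unc5cl and Dnah6, genes of which Dnah6 is an axonemal dynein of motile cilia, held 82 Hdc UMIs in 436 nuclei, at a median of 56.4 CPM over its sums. Hrh1 (-3.59) and Hrh2 (-3.07) were lower there, and Hrh3 had no UMI. In oligodendrocytes (257 nuclei, 38.7% of genes called) Hdc (-2.22) and Hnmt (-2.38) were lower, on 3 and 2 UMIs, and Hrh2 had no UMI. Their Hdc level of 4.94 CPM lies within the 1.89 to 6.0 CPM of neurons without the histaminergic type. In 79 oligodendrocyte precursors (13.6% called), 31 microglia (2.15%) and 54 pituitary-type nuclei (10.8%) Hdc had no UMI, and their floors of 3 counts are 14.95, 48.8 and 19.8 CPM. No receptor gene nor Hnmt was called in these 3. No nucleus met the rule for mast cells, which also make histamine.

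Rapamycin was then compared with vehicle in neurons, over 3 pools with the pool as a block (17346 genes, 0.461% called, edgeR). Hdc was the only histamine gene called. It stood at 20.04 (rapamycin) and 39.4 (vehicle) CPM in DIO, 15.8 and 35.4 CPM in OB, and 22.3 and 18.7 CPM in chow. Rapamycin was the lower in DIO and OB and the higher in chow, so the pools do not share a direction. The fitted log2 difference was -0.57 (SE 0.08, adjusted p = 6.15e-10), but Hdc was not called with no block for the pool (-0.67), and the adjusted p was 0.9999 with DESeq2, 0.187 with tags called by ratio, and 0.590 without the DIO pool. Without the chow pool the difference was -1.06 and without the OB pool -0.39. The log2 ratios within pools were -0.97 in DIO, -1.16 in OB and 0.26 in chow. They lie much further apart than the SE of 0.08, so the edgeR p-value does not measure the spread among pools.

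The share of histaminergic-type nuclei among neurons moved with these values. It was 1.03% (0.786 to 1.33) with rapamycin and 1.86% (1.47 to 2.30) with vehicle in DIO, 0.435% (0.266 to 0.672) and 1.66% (1.08 to 2.42) in OB, and 0.812% (0.575 to 1.11) and 0.745% (0.525 to 1.03) in chow. Within the class the log2 ratio of Hdc was -0.35 (-0.50 to -0.20) in DIO, 0.27 (-0.03 to 0.57) in OB and 0.19 (0.01 to 0.36) in chow. A fit within the class gave 0.02 (SE 0.14, with an adjusted p of 1, edgeR), where 0.0824% of 6071 genes were called. With each neuron class at equal weight in both treatments, the log2 ratio was -0.23 in DIO, 0.12 in OB and 0.23 in chow, against -0.97, -1.16 and 0.26 over all neurons. The OB shares cover only nuclei with a hashtag call. There the vehicle hashtag was called in 2323 nuclei, but in 5513 with tags called by ratio, against 5607 and 5367 for rapamycin. Of 2618 OB neurons without a call 0.191% were histaminergic-type. Whether treatment, the hashtag calls or the cells captured set the share was not tested.

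**Figure D4:**
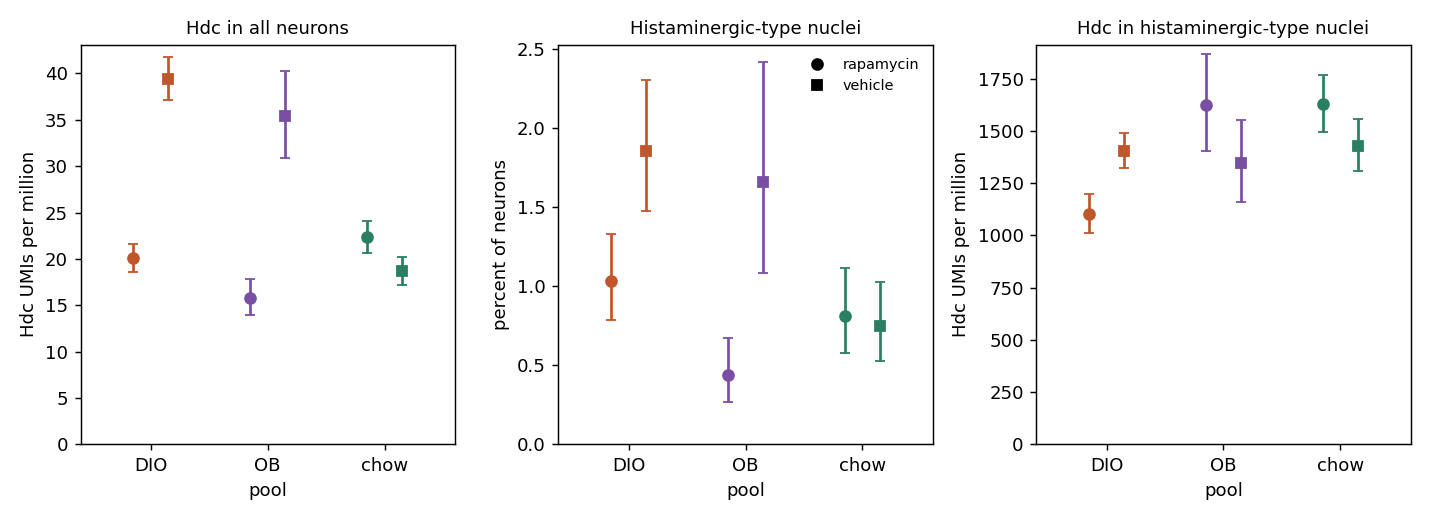
The panels give Hdc CPM in all neurons, the percent of neurons that are histaminergic-type, and Hdc CPM within that class (vertical axes) for each pool (horizontal axis), circles for rapamycin and squares for vehicle, with 95% counting intervals. Vehicle exceeds rapamycin in DIO and OB in the first 2 panels, but within the class only in DIO.

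Of the 10 genes of histaminergic neurons, 4 were lower with rapamycin and 0 higher in the fit over all neurons (median -0.17 against 0.01 over all genes). They were Wif1 (-0.80), Prph (-0.67), Slc18a2 (-0.27) and Hcrtr2 (-0.25 on the log2 scale). Wif1, Prph and Slc18a2 also set the histaminergic-type class, whose share of neurons differed between the hashtags. Within that class 0 of 6 tested genes of this list were called (median -0.08), beside 0.0824% of all genes. Slc18a2 was the 1 gene called among the 10 tested handling genes. With DESeq2 no gene was called. None of the 18 coupling genes was called, beside 0.461% of all genes. No histamine gene was called within GABAergic neurons, where 0% of genes were called, or glutamatergic neurons, where 0.0964% were.

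The other genes did not pass the test over all neurons. Hnmt had a log2 difference of -0.15 (adjusted p = 0.950), Hrh1 of 0.06 (adjusted p = 0.9998), Hrh2 of -0.26 (adjusted p = 0.749) and Hrh3 of 0.14 (adjusted p = 0.9998). Hrh2 stood at 8.06 (rapamycin) and 10.0 (vehicle) CPM in DIO, 11.7 and 15.5 CPM in OB, and 5.99 and 6.22 CPM in chow. These gave log2 ratios of -0.31 (-0.56 to -0.07), -0.41 (-0.77 to -0.04) and -0.05 (-0.35 to 0.24), where the chow interval spans 0. From the 5% to the 95% point, the ratios of all genes ran from -0.28 to 0.41 in DIO, -0.43 to 0.41 in OB and -0.31 to 0.23 in chow. Hrh2 lies inside this range in OB and chow and just below it in DIO.

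Hnmt stood at 15.3 (rapamycin) and 16.2 (vehicle) CPM in DIO, 14.1 and 17.9 CPM in OB, and 18.0 and 19.4 CPM in chow. Hrh1 stood at 19.2 and 20.6 CPM in DIO, 17.1 and 16.8 CPM in OB, and 12.3 and 9.97 CPM in chow. Hrh3 stood at 10.8 and 10.6 CPM in DIO, 14.9 and 13.6 CPM in OB, and 10.5 and 8.77 CPM in chow. Hnmt was below vehicle and Hrh3 above it in all 3 pools, by log2 ratios of at most -0.34 for Hnmt and 0.27 for Hrh3 in size. With nuclei thinned to 1000 UMIs, Hnmt in chow was at 0.067 and Hrh3 in OB at 0.92.

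For scale, 0.428% of genes in DIO, 0.726% in OB and 0.195% in chow differed at least 2-fold between the 2 hashtags, and among the histamine genes Hdc in OB did. In GABAergic neurons this background was 0.343% in DIO, 1.25% in OB and 0.214% in chow, and Hdc passed 2-fold in DIO (-1.11) and OB (-1.06), where the class holds histaminergic-type nuclei. In glutamatergic neurons it was 0.514% in DIO, 0.933% in OB and 0.211% in chow. Hrh2 in OB stood at -1.02 (-2.63 to 0.59) there, on 8 UMIs in each treatment, below the minimum of 50 UMIs for this background. Without histaminergic-type nuclei the background over neurons was 0.41% in DIO, 0.684% in OB and 0.195% in chow. Hdc ratios were then 0.97 (0.49 to 1.45) in DIO, -0.51 (-1.11 to 0.11) in OB and 0.51 (0.06 to 0.96) in chow. They were within 2-fold, but the DIO ratio is opposite to the -0.97 over all neurons. From the 5% to the 95% point, the ratios of all genes ran from -0.28 to 0.41 in DIO, -0.41 to 0.41 in OB and -0.31 to 0.23 in chow. Hdc lies outside this range in each pool, on 37 to 124 UMIs per sum. These sums still hold nuclei rich in Hdc that the marker rule left out. With at least 3 Hdc UMIs there were 20 other neurons and 3 nuclei of more than 1 class. Of neurons outside the class, 7 held 10 to 19 Hdc UMIs. How far these few nuclei set the ratios was not tested.

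Vehicle nuclei of obese mice were set beside those of chow mice, as 1 sample each and with no test. Both ratios share the chow vehicle sample, and the pools differ in library. OB also differs in software version, in depth and in the list of counted genes (31053 against 27998). None of these can be told apart from the mice. Hrh1 stood at 20.6 CPM in DIO and 9.97 CPM in chow, a log2 ratio of 1.05 (0.85 to 1.25). Past 2-fold lay 3.36% of all genes. Hrh1 stood at 16.2 CPM in DIO and 7.26 CPM in chow within GABAergic neurons, a ratio of 1.16 (0.71 to 1.63), where 2.53% of genes lay past 2-fold. Within glutamatergic neurons it stood at 29.2 CPM in DIO and 13.5 CPM in chow, a ratio of 1.11 (0.67 to 1.56), where 2.8% did. At equal class weights the ratio was 1.05. In rapamycin nuclei it was 0.64 (0.46 to 0.83), where 2.92% of genes lay past 2-fold and none of the histamine genes did.

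In OB, Hrh1 stood at 16.8 CPM, a log2 ratio of 0.75 (0.42 to 1.08) to chow. Hrh2 stood at 15.5 CPM in OB and 10.0 CPM in DIO, against 6.22 CPM in chow. Its log2 ratios were 1.32 (0.96 to 1.68) for OB, where 5.35% of genes lay past 2-fold, and 0.69 (0.42 to 0.95) for DIO. Hrh3 had ratios of 0.28 (0.04 to 0.51) for DIO and 0.64 (0.27 to 0.99) for OB, and Hnmt of -0.26 (-0.43 to -0.08) and -0.12 (-0.42 to 0.17). The 3 receptor genes were above chow in both obese pools, but the OB ratio of Hrh3 was -0.28 once nuclei were thinned to 1000 UMIs. From the 5% to the 95% point, the ratios of all genes ran from -0.73 to 0.66 for DIO and -0.64 to 0.84 for OB. Hrh3 in both pools and Hrh1 in OB lie inside these ranges, and Hrh2 in both pools and Hrh1 in DIO lie above them. In OB, 5.85% of genes lay past 2-fold in GABAergic neurons, with Hrh1 at 1.02 (0.12 to 1.83), and 7.64% in glutamatergic neurons. Hrh2 in glutamatergic neurons was at 1.15 (-0.18 to 2.31), on 8 UMIs in OB and 31 in chow, too few to enter that background. In rapamycin nuclei of OB and chow the ratios were 0.48 for Hrh1, 0.97 for Hrh2, 0.50 for Hrh3 and -0.35 for Hnmt, where 4.4% of genes lay past 2-fold.

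Hdc stood at 39.4 CPM in DIO and 35.4 CPM in OB, against 18.7 CPM in chow, log2 ratios of 1.08 and 0.92. At equal class weights they were -0.05 and 0.11, and with tags called by ratio the OB value was 0.06. In rapamycin nuclei the ratios to chow were -0.16 for DIO and -0.50 for OB. Within GABAergic neurons of vehicle mice they were 1.72 for DIO and 0.90 for OB. Within histaminergic-type neurons of vehicle mice the ratios were -0.03 (-0.18 to 0.13) and -0.09 (-0.34 to 0.16), beside shares of the class among neurons of 1.86% in DIO and 1.66% in OB against 0.745% in chow.

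**Figure D5:**
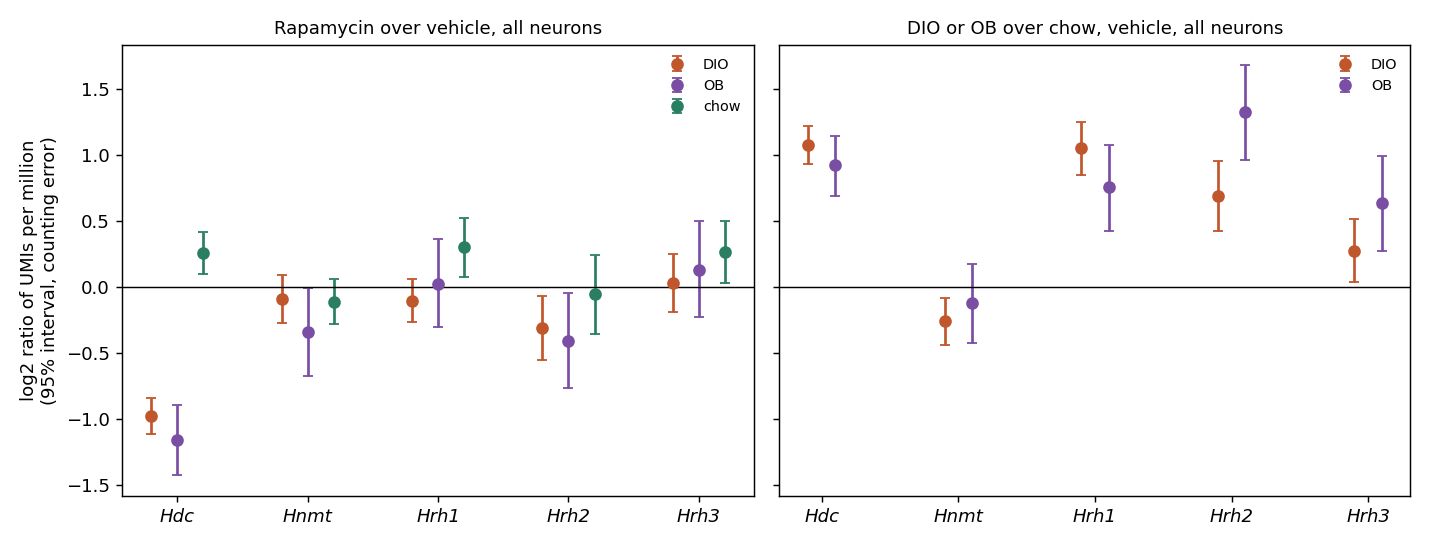
The vertical axis gives log2 ratios of CPM over all neurons with 95% counting intervals for the 5 genes (horizontal axis), rapamycin over vehicle in each pool on the left and DIO or OB over chow in vehicle nuclei on the right. On the right Hdc and the 3 receptor genes lie above 0 in both pools (Hrh3 in OB not after thinning), and on the left Hdc lies below 0 in DIO and OB and above it in chow.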

How the data were processed

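The deposited values are unnormalized UMI counts of genes and hashtags, which the authors made with Cell Ranger. Per the submitters' processing notes this was Cell Ranger 6.0.0 with mm10. Per the file headers it was 6.0.0 for DIO and chow and 7.0.1 for OB. The OB matrix lists 31053 genes, and those of DIO and chow 27998 each, so the gene lists differ. Whether intronic reads were counted is not given in the sources used here. Hrh2 overlaps the counted lncRNA Gm16578, so its counts may be shared or lost.

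Nuclei were kept from 500 UMIs and 300 genes upward with a mitochondrial share below 5%. Treatments were called with HTODemux (Seurat 5.3.0, quantile 0.99), which removed 450 doublets in DIO, 622 in OB and 542 in chow. Doublets within a hashtag cannot be seen. Classes were set by marker UMIs, none of them a histamine gene, and levels are sums of UMIs per 1000000. Tests on sums of at least 5 nuclei used edgeR 4.0.16 (R 4.3.3; TMM, filterByExpr), with SE taken as the log2 difference over the root of F. DESeq2 1.42.0 was an alternative. Clusters (scanpy 1.11.5, leidenalg 0.10.2) used 3000 genes, 40 components, 20 neighbours and resolution 1.

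The 3 pools, which differ in diet or genotype, served as replicates for treatment and, with their 2 hashtags, for classes. The p-values rest on these sums and not on single mice. For Hdc with rapamycin the edgeR p-value does not measure the spread among the pool ratios, which have opposite signs. Neuronal sums held 34129630 (rapamycin) and 29375534 (vehicle) UMIs in DIO, 16494098 and 6306926 in OB, and 30063058 and 31692815 in chow. Ratios of single sums count as past 2-fold among genes with at least 50 UMIs.

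The members, lists and classes were chosen with earlier results of these data known. Named genes are the 5 members, up to 4 per list with the lowest p, and the 3 most alike by Pearson r among genes of at least 5 CPM. Comparisons within classes over 3 pools and of cells other than neurons were added after the data were seen. The fits for rapamycin, for transmitter class and for the histaminergic-type class were run on simulated counts. These had the same scatter for all genes and no difference between pools, so they cannot show how the fits treat effects that differ between pools.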

Additional observations from a re-analysis of the deposited data

Results flagged for a closer look

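The rapamycin ratio of Hdc took opposite signs between pools, with counting intervals that leave out 0 on both sides. Over all neurons the log2 ratio was -0.97 in DIO and -1.16 in OB, and 0.26 in chow. In GABAergic neurons it was -1.11 in DIO and -1.06 in OB, and 0.86 in chow. Within histaminergic-type neurons it was -0.35 in DIO and 0.19 in chow. These intervals take each UMI as independent, but Hdc UMIs lie in few nuclei. In GABAergic neurons of vehicle, 69 UMIs came from 12 nuclei in OB and 280 from 31 nuclei in chow. The intervals are therefore too narrow, and that they leave out 0 does not establish a difference in sign. The difference between the pools was not tested, since each hashtag is 1 sample.

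Nuclei without a hashtag call enter no comparison. In OB, 2618 such neurons held 41 Hdc UMIs or 4.95 CPM (3.56 to 6.72), against 15.8 CPM with rapamycin and 35.4 CPM with vehicle in OB neurons with a call. Of them 5 (0.191%) were histaminergic-type. In DIO, 226 neurons without a call held 27 Hdc UMIs or 26.6 CPM (17.5 to 38.7), against 20.04 CPM with rapamycin and 39.4 CPM with vehicle.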

How the results depend on the processing

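The count of genes called for rapamycin was 80, but 0 with DESeq2 (195 at an unadjusted p under 0.05), 0 with no replicate block, 15 with the tag ratio and 17 to 191 with 1 pool left out. Hdc there had a log2 difference of -0.63 with DESeq2, -0.67 with no replicate block and -0.46 with the tag ratio, and -1.06 to -0.27 with 1 pool left out, while Hrh1 ran from -0.087 to 0.20. GABAergic against glutamatergic neurons gave 2268 calls, but 858 with no replicate block, 658 with at least 4 transmitter UMIs, 163 with classes set after thinning, where no histamine gene passed the filter, and 1345 to 2326 with 1 pool left out. Without the block Hrh1 had -0.82 and Hrh3 0.58, both no longer called. Hrh2 had -0.46 with no filter and -0.59 to -0.15 with 1 pool left out, and was called without a filter and without OB. Hrh3 ran from 0.51 to 0.58. Without histaminergic-type nuclei, an alternative chosen after seeing the data, Hdc had 0.49 and Hrh3 0.29. In histaminergic-type neurons Hrh2 ran from -3.06 to -2.01, and Hnmt was 0.0065 in nuclei with at least 3 Hdc UMIs.

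The log2 ratios moved at equal class weights for Hdc, to -0.23 (rapamycin in DIO), 0.12 (rapamycin in OB), -0.048 (DIO to chow) and 0.11 (OB to chow). With the tag ratio the OB values of Hdc were -0.48 (rapamycin) and 0.060 (to chow). Thinned to 1000 UMIs, the rapamycin ratios were 0.58 for Hdc and 0.067 for Hnmt in chow, -0.51 for Hrh1 and -0.82 for Hrh2 in DIO, and -1.55 for Hdc and 0.92 for Hrh3 in OB. The DIO to chow ratios were then 0.0030 for Hnmt and 1.25 for Hrh1, and the OB to chow ratios 1.41 for Hdc, 0.18 for Hnmt and -0.28 for Hrh3. The cause was not tested.

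Hdc in histaminergic-type neurons stood at 1597 CPM with doubled key minimum and 1589 CPM in the cluster. Shares with a UMI after thinning were 62.7% for Hdc, 7.69% for Hrh3 and 1.15% for Hnmt there, 1.56% for Hrh1 in ventromedial, 1.14% for Hrh2 in Sim1 and Otp and 1.72% for Hrh3 in Pmch neurons. Over all neurons the thinned shares were 1.49% for Hrh1, 0.868% for Hrh2 and 1.2% for Hrh3. Ventromedial neurons gave no value with a doubled minimum. Of 273 alternatives 224 were labelled the same as the main result. For tests of a gene this meant the same direction and call, and for counts of called genes a value within 1.5-fold. For ratios and for shares it meant a value inside the interval of the main result, whatever its sign. For CPM it meant a value within the SD over the sums. OB is the shallowest pool.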
